A study of Mus musculus with 6 samples.

Results

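H19, Igf2 and Meg3 are 3 imprinted mouse genes, described here in embryonic stem cells and embryonic fibroblasts. Their reads were chosen by position: an alignment record was taken when its 5′ end lay in the window of 1 gene, padded by 1 kb, on the strand of that gene. The windows, in mm9, the build that the submitters' processing notes name, were chr7:149761437-149764048 on the minus strand for H19, chr7:149836600-149852800 on the minus strand for Igf2 and chr12:110779200-110810000 on the plus strand for Meg3. They held 2158 of the 1209744 records, and no record lay in the padding. Where records on one strand at most 500 nt apart were joined into loci, the members took up 11 of 29069 loci.

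An imprinted gene is transcribed mainly from the copy inherited from one parent, and the choice is kept by DNA methylation at a control region near the gene. H19 and Igf2 share such a region: H19, a long noncoding RNA, comes from the maternal copy, and Igf2, which encodes insulin-like growth factor 2, a growth factor of the embryo, comes from the paternal copy. Meg3 is a long noncoding RNA of the maternal copy in another imprinted domain, which also holds the protein-coding genes Dlk1 and Rtl1 and the noncoding RNA Rian. H19 and Igf2 are strongly transcribed in the embryo and placenta and are turned down in most tissues after birth. The deposited records carry no sequence, so that the parental copy of a read was not analysed.

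The libraries were made with Hi-SCL, in which single cells were lysed in drops, and each drop was merged with another that carried a barcoded primer for the poly(A) tail. The sequenced end of a fragment therefore lies upstream of the site of priming, by the length of the fragment. The 6 libraries each name both cell types: mES, the V6.5 embryonic stem cell line, grown with LIF and serum, and mEF, fibroblasts of a commercial stock (Globalstem) labelled 10.5 p.c. (post coitum), grown with the same serum and no LIF. Barcodes were sorted by the authors into the cell types, and all libraries were merged into 1 mES and 1 mEF aggregate, so that the values below are those of 2 pools, with no replicate and no test. No other treatment or genotype was labelled, and the labelled cell types were not checked against marker genes, since no mm9 annotation was used.

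For mES there were 750739 records, from 612194 reads, and for mEF 459005 records, from 387359 reads. Values are records per 1000000 records of the aggregate (CPM) with exact 95% Poisson intervals, which cover counting error only, since copies made by PCR are not independent molecules. An aggregate held on average 13.9 records at each distinct 5′ position in mES and 18.2 in mEF, and a count of distinct positions is therefore given beside the records. Read names showed 3 sequencing runs, numbered by their records: run 1 with 438528 mES and 293937 mEF records, run 2 with 203401 and 135387, and run 3 with 108810 and 29681. Alignments of run 3 most often spanned 45 nt and those of the other runs 35 nt, and few Meg3 positions of run 3 recurred in run 1 or 2 (1 of 7 for mES, 1 of 13 for mEF), so the ratios of the genes and of the main loci are given with and without run 3. Runs 1 and 2 used nearly the same positions: Meg3 in mEF had 67 positions in run 1, 63 in run 2 and 69 over both, and H19 had 13, 11 and 13. Their values are therefore not separate measurements of the cells, and the runs could not be tied to the 6 libraries. The read names carry no barcode, and shared barcodes could not be counted. The authors estimated that part of the transcripts under a barcode came from other cells. Such transcripts could not be told apart here. Whether they make up the low mES counts of a member, or change its ratio, was not tested. Fewer cells with a transcript and fewer transcripts per cell cannot be told apart in a pool. If barcodes were assigned by transcript profile, reads of the members took part in that choice, and the comparison is in any case a description.

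Because the primer was made for the poly(A) tail, the ends of the members' annotated transcripts are shown first. The last 150 bases of a full-length transcript of each noncoding gene (GENCODE M21, GRCm38), with the poly(A) signal AATAAA in capitals, read 5′ to 3′:
H19-202: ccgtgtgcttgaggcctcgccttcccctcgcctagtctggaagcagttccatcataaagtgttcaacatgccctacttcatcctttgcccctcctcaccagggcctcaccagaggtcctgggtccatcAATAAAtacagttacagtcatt
Meg3-207: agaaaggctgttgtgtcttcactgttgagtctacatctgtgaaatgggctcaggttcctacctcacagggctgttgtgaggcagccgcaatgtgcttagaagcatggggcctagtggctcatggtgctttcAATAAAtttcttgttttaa
The signal ended 16 nt before the end of H19-202, which is 2286 nt long, and 13 nt before the end of Meg3-207, which is 1896 nt long. Searched on the transcript strand, AATAAA was in the last 150 bases of 42050 of 135671 GENCODE transcripts of at least that length (31.0%), of 4 of the 7 for H19, of 4 of the 9 for Igf2 and of 4 of the 11 for Meg3.

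A stretch inside Meg3 is shown because most Meg3 records lay far from its annotated 3′ end. In GRCm38 annotation, 4 of the 11 Meg3 transcripts ended within 100 nt of the gene's end, 3 ended over 20000 nt before it and 4 in between. Of the short ones, Meg3-205, which is 1498 nt long, ended 4318 nt from the start of the gene and 26407 nt before its end. The 300 bases around that end, a promoter window of RefSeq at chr12:109545148-109545447 on the plus strand of GRCm38.p6, are given with a run of 20 A in capitals:
Meg3 internal: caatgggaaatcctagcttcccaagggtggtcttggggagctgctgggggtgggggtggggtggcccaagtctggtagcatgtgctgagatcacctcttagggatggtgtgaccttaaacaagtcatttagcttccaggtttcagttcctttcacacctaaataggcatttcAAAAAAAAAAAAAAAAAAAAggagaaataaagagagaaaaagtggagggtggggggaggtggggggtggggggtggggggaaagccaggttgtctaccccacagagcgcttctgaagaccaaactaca
Meg3-205 ended after base 172 of this stretch, just before the run of A. Of 32851 RefSeq promoter windows of the same length, 89 held such a run of A (0.271%), and 206 held a run of A or of T (0.627%). The run length was taken from the Meg3 window, itself among the 89. Promoter windows are also not a background for transcript ends, so these shares are a description only. The records are in mm9 and this sequence is in GRCm38, so no record was placed on it. Whether the barcoded primer annealed there was not tested. From the start of the mm9 window, the first group of Meg3 records ran from 3836 to 4840 nt. The 4318 nt are counted from the start of the gene in GRCm38, and the starts in the builds were not matched. Where that group lay relative to the end of Meg3-205 was therefore not determined.

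Both noncoding members also carry a microRNA hairpin. Their mature RNAs are shown, from RefSeq, with the seed (bases 2 to 8) in capitals, to mark what these libraries do not read:
mmu-miR-675-5p: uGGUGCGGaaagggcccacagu
mmu-miR-675-3p: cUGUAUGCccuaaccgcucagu
mmu-miR-770-5p: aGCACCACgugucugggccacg
mmu-miR-770-3p: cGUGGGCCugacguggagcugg
The 4 seeds differ from one another. The Mir675 hairpin took up bases 997 to 1080 of H19-202 and ended 1206 nt before its 3′ end. The Mir770 hairpin took up bases 6514 to 6607 of Meg3-209, a transcript of 14548 nt and the only one of the 11 that holds it, and ended 7941 nt before its end. A record in either window is counted for RNA of the host gene and does not measure the mature microRNA. Whether each record was primed at a poly(A) tail was not tested.

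H19 was scarce in the mES aggregate and abundant in the mEF aggregate. It had 24 records at 2 positions in mES, or 32.0 CPM (20.5 to 47.6), and 274 records at 14 positions in mEF, or 597 CPM (528 to 672). The mEF level was 18.7 times the mES level (12.3 to 29.6), a log2 ratio of 4.22, and in distinct positions, scaled to all positions, 15.0 times (3.43 to 136). The mES records were few and on few positions.

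Sequencing runs differed for this gene. In mES the H19 level was 22.8 CPM in run 1, 9.83 CPM in run 2 and 110 CPM in run 3, from 10, 2 and 12 records. In mEF it was 633, 635 and 67.4 CPM, from 186, 86 and 2 records. In runs 1 and 2 the intervals of the cell types were apart, and in run 3 they overlapped. Over runs 1 and 2 the ratio was 33.9 (19.1 to 66.4; log2 5.08), from 12 mES and 272 mEF records. In run 3 it was 0.611 (0.0664 to 2.74; log2 -0.71), with the 12 mES records at 1 position and the 2 mEF records at another. Scaled to all positions of run 3, those single positions give a ratio of 2.48 (0.0316 to 194; log2 1.31). With 1 position in each aggregate, that value is set by the position totals of run 3. It therefore gives no direction for H19.

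**Figure D1:**
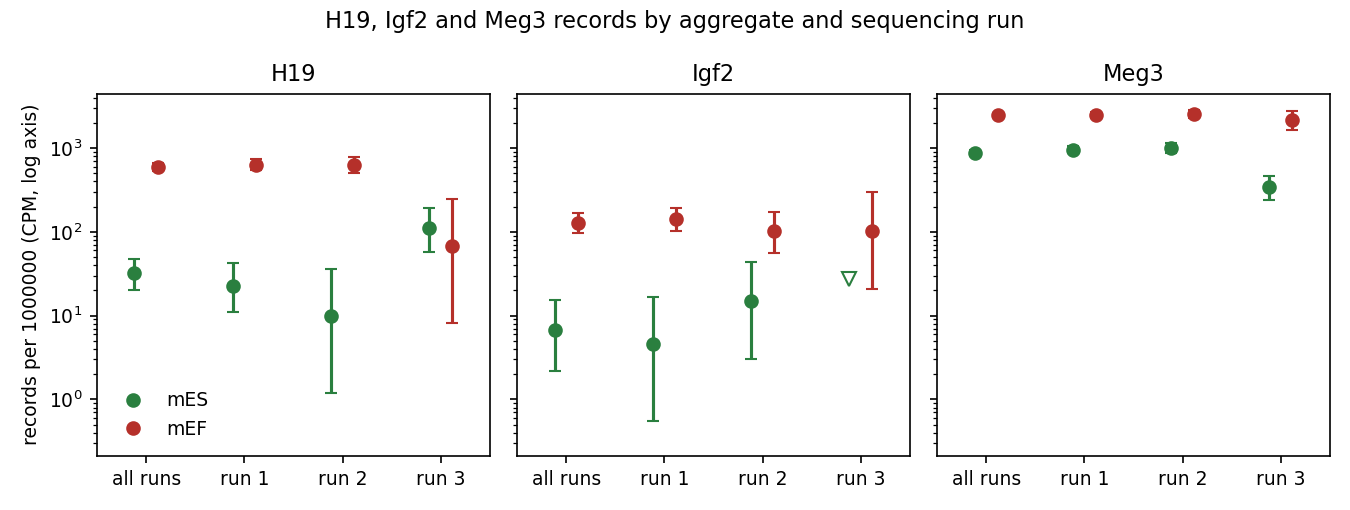
Level of each gene in CPM (log axis) over all runs and in each run, for mES (green) and mEF (red). Points are pooled values and bars their exact 95% Poisson intervals; the open triangle marks 3 counts for Igf2 in mES in run 3, where no record was found. mEF lies above mES for all 3 genes over all runs, and for H19 the intervals of run 3 overlap.

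All H19 records lay close to the 3′ end of the gene. Positions ran from 77 to 770 nt upstream of the window's end, and the median mEF record lay 138 nt from it. Of the mEF records, 243 of 274 (88.7%), at 11 of 14 positions, were within 500 nt of the end, and so were all 24 mES records. The most used mEF positions, 79 and 208 nt from the end, held 44 records each, which is 16.1% of the gene's mEF records. The mES records lay at 87 nt, with 12 records of runs 1 and 2, and at 250 nt, with 12 records of run 3. The position at 87 nt was the only one that both aggregates used, with 10 mEF records. No H19 record spanned a gap.

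Igf2 was at the edge of detection in mES. It had 5 records there, all at 1 position, or 6.66 CPM (2.16 to 15.5), against 59 records at 2 positions in mEF, or 129 CPM (97.8 to 166). The floor set by 3 counts was 4.00 CPM (mES) or 6.54 CPM (mEF). The mEF to mES ratio was 19.3 (7.82 to 61.6; log2 4.27) in records, and 4.27 (0.222 to 252; log2 2.10) in distinct positions, an interval that includes 1. Records of Igf2 thus rest on 3 positions in all, and at this depth the number of distinct fragments does not separate the cell types.

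By run, mES had 2, 3 and 0 Igf2 records and mEF 42, 14 and 3. In CPM these were 4.56, 14.7 and 0 in mES, where 3 counts in run 3 correspond to 27.6 CPM, and 143, 103 and 101 in mEF. The mEF value was above the mES value in runs 1 and 2, with ratios of 31.3 (8.15 to 267) and 7.01 (1.96 to 38.0), and over both runs the ratio was 16.7 (6.77 to 53.6). Run 3 gave no ratio, because both counts were at or under 3.

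The mES position of Igf2 lay 142 nt upstream of the window's 3′ end. In mEF, 56 of 59 records (94.9%) lay 293 nt upstream of it, from runs 1 and 2, and the other 3, all of run 3, lay 2827 nt upstream. No Igf2 position was shared. Of the 9 Igf2 transcripts in GRCm38 annotation, 5 end within 100 nt of the gene's end and 4 earlier. Reads of any other transcript with the same 3′ part cannot be told apart from those of Igf2.

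**Figure D2:**
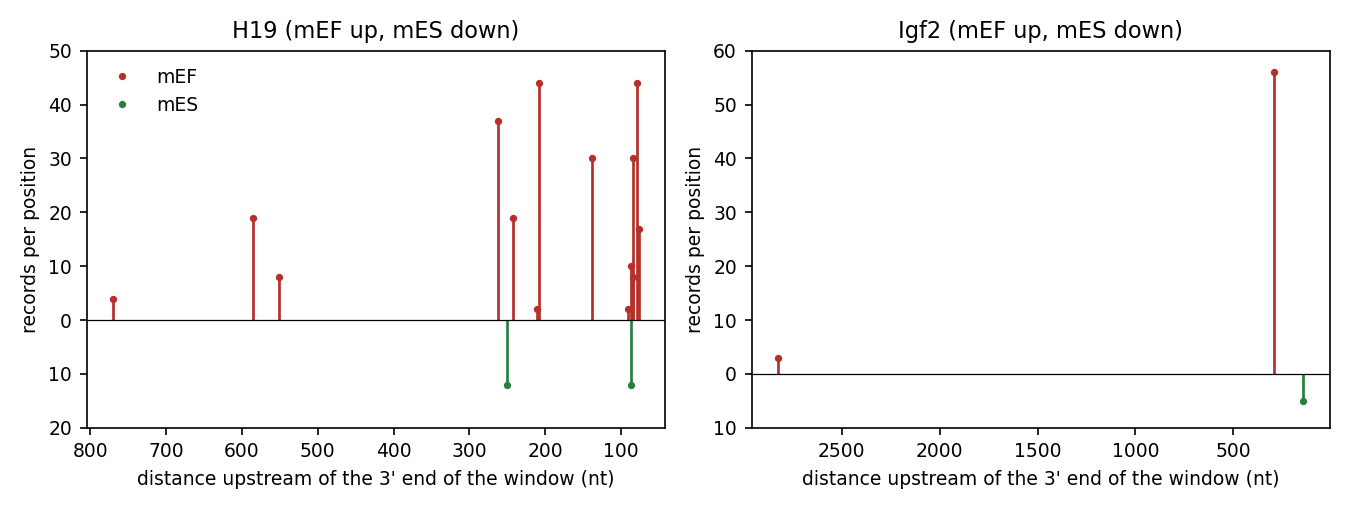
Records at each 5′ position of H19 (left) and Igf2 (right) against the distance in nt upstream of the window's 3′ end, with mEF drawn upward in red and mES downward in green. H19 has 14 positions in mEF and 2 in mES, and Igf2 has 2 and 1, of which the mEF position with 56 records holds most of the gene's records.

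Meg3 had the most records of the 3 genes. Its mEF to mES ratio was lower than those of H19 and Igf2 in records pooled over all runs and over runs 1 and 2, but above that of H19 in run 3 and close to that of Igf2 in distinct positions, where the Igf2 interval is wide. Levels were not compared between genes, since the tags come from 3′ ends and sites of priming. In mES Meg3 had 656 records at 42 positions, or 874 CPM (808 to 943), and in mEF 1140 records at 81 positions, or 2484 CPM (2342 to 2632). The mEF to mES ratio was 2.84 (2.58 to 3.13; log2 1.51) in records and 4.12 (2.80 to 6.13; log2 2.04) in distinct positions.

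The mEF level of Meg3 was above the mES level in each run. The mES level was 951, 993 and 340 CPM in runs 1, 2 and 3, from 417, 202 and 37 records, and the mEF level was 2480, 2563 and 2156 CPM, from 729, 347 and 64 records. Run 3 was low in mES, and the 3 mEF values had overlapping intervals. The ratio was 2.61 (2.31 to 2.95) in run 1, 2.58 (2.16 to 3.09) in run 2 and 6.34 (4.17 to 9.78) in run 3. Over runs 1 and 2 it was 2.60 (2.35 to 2.87).

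Of the 115 Meg3 positions, 8 were used in both aggregates, all of them in the internal part of the gene. They held 149 records in mES and 108 in mEF. The most used shared position, 4209 nt from the window's start, had 51 mES and 24 mEF records. The most used mEF position, 3 nt further on, had 56 mEF records and no mES record. Sharing of positions outside the members was not counted, so the shared positions of the 3 genes have no background here.

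Meg3 records fell into 8 loci, and most lay near the 5′ end of the window. The first locus, chr12:110783036-110784040, ran from 3836 to 4840 nt past the start of the window and 25960 nt or more upstream of its end. It had 381 records at 26 positions in mES and 925 at 63 positions in mEF. These were 58.1% of the Meg3 records in mES (exact binomial interval 54.2 to 61.9) and 81.1% in mEF (78.7 to 83.4). The last locus, chr12:110809615-110809894, lay 106 to 385 nt from the window's end. It had 119 records at 7 positions in mES (18.1%; 15.3 to 21.3) and 162 at 12 positions in mEF (14.2%; 12.2 to 16.4).

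The share of the first locus was higher in mEF within each set of runs, but with run 3 alone and in distinct positions the intervals overlapped. Over runs 1 and 2 it was 59.1% in mES and 82.4% in mEF, and in run 3 it was 40.5% (24.8 to 57.9) and 59.4% (46.4 to 71.5). Of the distinct positions, 61.9% in mES (45.6 to 76.4) and 77.8% in mEF (67.2 to 86.3) lay in it. The mEF to mES ratio of CPM was 3.97 (3.52 to 4.49) at the first locus and 2.23 (1.75 to 2.85) at the last. Without run 3, in which the last locus had no mES record and 21 mEF records, these were 3.62 (3.20 to 4.10) and 1.77 (1.38 to 2.28). In records, the Meg3 ratio thus depended on where in the gene it was read. No ratio of the loci was made in distinct positions.

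Between these loci, 6 others held 156 mES records at 9 positions, 23.8% of its Meg3 records, and 53 mEF records at 6 positions, 4.65%. The one with the most records, chr12:110801216-110801365, had 84 records at 4 positions in mES, with records from all 3 runs, and none in mEF. With 3 counts in place of 0, the mES level in records was 17.1 times the mEF level. The lower 95% bound, 13.6, counts each record as independent and so is no minimum for molecules. No ratio was made for the 4 mES positions against none in mEF. Without run 3 the mES level was 15.2 times the mEF level in the same way, from 68 records. The loci at 110803587 and at 110796512 had 25 and 14 mES records, each at 1 position, and no mEF record. The locus at chr12:110787680-110787918 had 16 mEF records at 4 positions and no mES record. That from 110799235 to 110800189 had 12 mES and 4 mEF records, and that from 110804697 to 110804936 had 21 and 33. Several of these loci rest on 1 position in an aggregate.

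**Figure D3:**
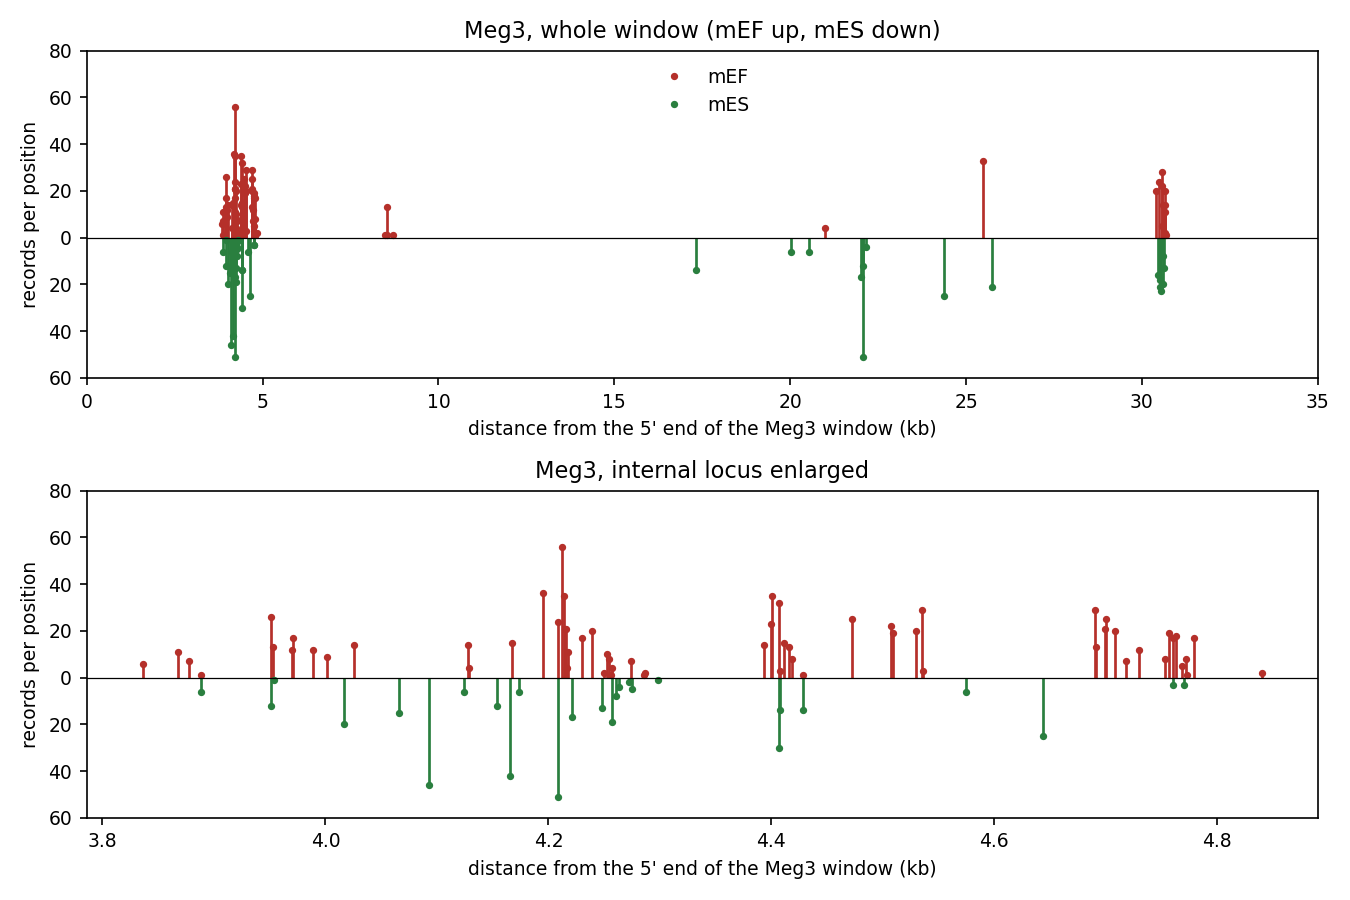
Meg3 records at each 5′ position against the distance in kb from the 5′ end of the window, over the whole window (top) and at the first locus (bottom), with mEF drawn upward in red and mES downward in green. Most records lie between 3836 and 4840 nt, and a smaller group lies near the 3′ end. Between them are 9 mES positions with 156 records and 6 mEF positions with 53. The mES aggregate has more positions in all.

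Gapped alignments, as an intron gives, were seen for Meg3 alone among the members. In mES, 14 records spanned 13105 nt from 110796512 to 110809616, so that they joined the body of the gene to its last locus. In mEF, 13 records spanned 135 nt from 110787736 to 110787870, and 1 more spanned the same length 5 nt downstream. The mES records came from runs 1 and 2 (11 and 3), and so did the mEF records (10 and 4), and neither span was seen in the other aggregate.

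The opposite strand held no record in any of the 3 windows in either aggregate, and 3 counts, taken as the limit that a count of 0 allows, correspond to 4.00 CPM (mES) or 6.54 CPM (mEF). All records of the members had the highest mapping score, a score that 77.9% of all records had in mES and 77.8% in mEF. Second copies of a record were 9 for Meg3 in mES and 1 in mEF, all in run 3, and none for H19 or Igf2.

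In records, the 100 kb past the Meg3 window, on the same strand, went the other way. They held 291 mES records at 25 positions, or 388 CPM, and 70 mEF records at 9 positions, or 153 CPM. In records mES was 2.54 times mEF (1.95 to 3.35), or 2.75 times without run 3 (2.06 to 3.73). These intervals count each record as independent, although copies made by PCR are not. No ratio was made in distinct positions, of which the aggregates held 53947 (mES) and 25252 (mEF) in all. Of 16 loci there, 12 had mES records only, 2 had mEF records only and 2 had both. The mES aggregate has more records and positions. The share of all loci with records of a single aggregate was not computed, so these counts are a description. The locus with the most mES records, chr12:110836610-110836644, had 71 of them and no mEF record. The locus with the most records in all, chr12:110899596-110899862, had 43 in mES at 8 positions and 41 in mEF at 6. By runs, mES had 243 records in runs 1 and 2 and 48 in run 3, and mEF 59 and 11. In the order of RefSeq genes on GRCm38, Rtl1 and Rian follow Meg3, but the loci were not assigned to genes.

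**Figure D4:**
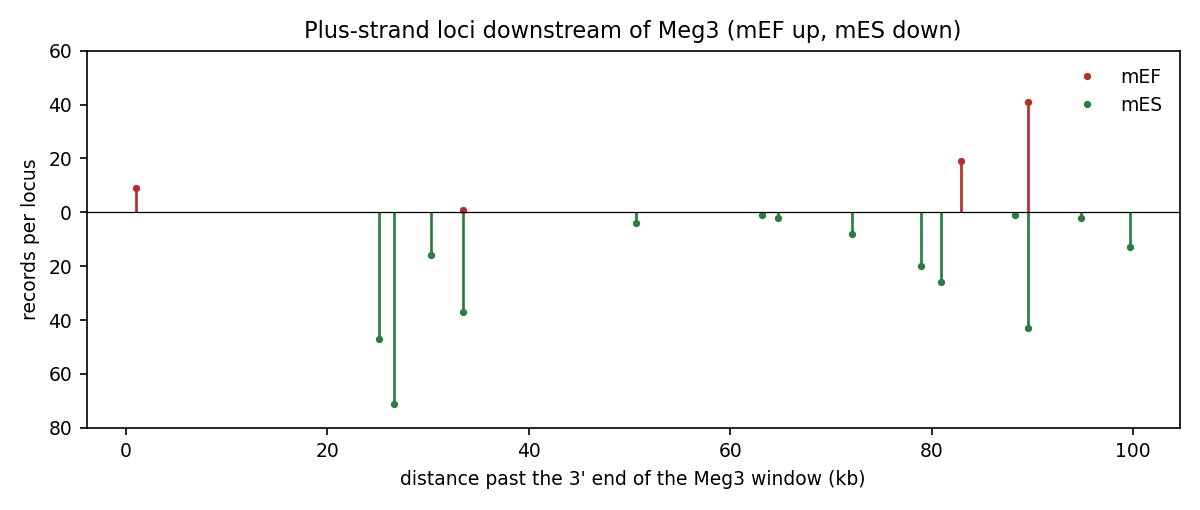
Records at each plus-strand locus in the 100 kb past the 3′ end of the Meg3 window, against the distance in kb, with mEF drawn upward in red and mES downward in green. Of 16 loci, 12 have mES records only, and the locus at 89.6 kb has 43 mES and 41 mEF records. The mES aggregate has more records and positions, and the share of such loci over all loci was not computed.

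The 100 kb before Meg3 had 4 mES records and 43 mEF records at 4 positions (5.33 and 93.7 CPM), all near chr12:110698730-110698777. Past the 3′ end of H19, the gene's own strand had none in either aggregate, and the opposite strand had 5 mES records at 1 position and 90 mEF records at 5 positions (6.66 and 196 CPM). Upstream of H19, the gene's strand held no record but those of Igf2.

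To place the members' ratios, all loci that held at least 50 records, both aggregates counted, were compared in the same way, with 3 counts in place of 0. Of the 3 members, H19 and Igf2 were over 4-fold higher in mEF and Meg3 was not, while 24.6% of 4321 loci (1061) passed that fold. Among the 1043 loci with 10 or more distinct positions, 11.5% (120) passed it, a choice added after seeing the data. H19, with 15 positions, belongs to these, and Igf2, with 3, does not. In distinct positions the Meg3 ratio of 4.12 was just past 4-fold. The median log2 ratio of all loci was -0.10, and of those with 10 or more positions -0.19, beside 4.22 for H19, 4.27 for Igf2 and 1.51 for Meg3. Of the 11 member loci, 6 held at least 50 records, of which 2 were over 4-fold higher in mEF, 1 was over 4-fold higher in mES and 3 were within 4-fold. Over 4-fold higher in mES were 30.2% of all loci with at least 50 records and 18% of those with 10 or more positions. Scaling by the median of ratios over 3035 loci moved the log2 ratios down by 0.45, to 1.06 for Meg3, and changed the direction of none of the 3 members.

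**Figure D5:**
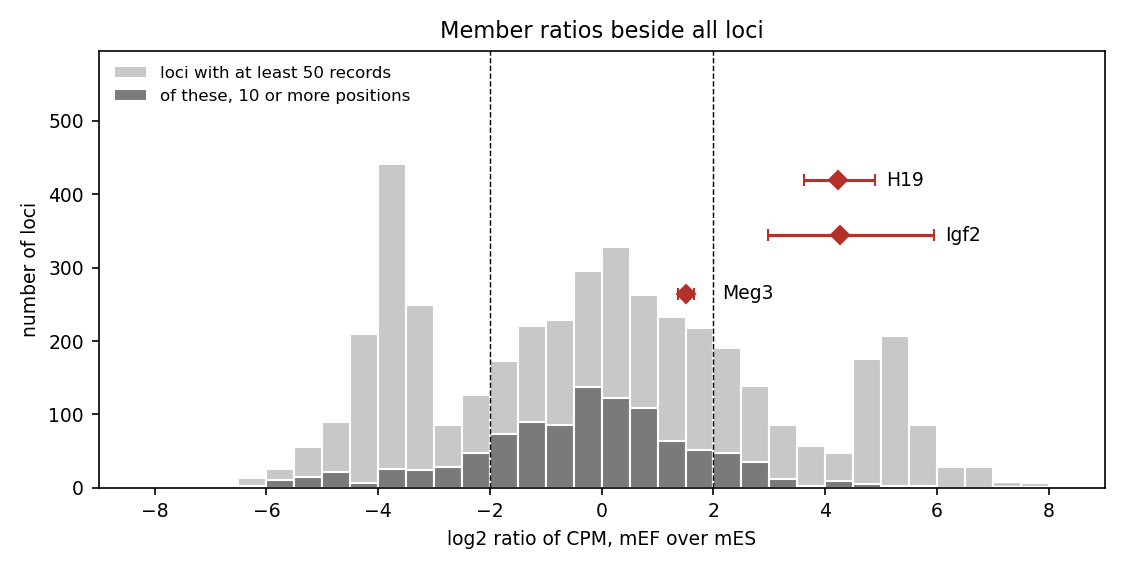
Histogram of the log2 ratio of CPM, mEF over mES, for the 4321 loci with at least 50 records (light) and the 1043 of these with 10 or more positions (dark). Diamonds with 95% intervals, at arbitrary heights, mark H19 at 4.22, Igf2 at 4.27 and Meg3 at 1.51, and dashed lines mark 4-fold.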

How the data were processed

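Hi-SCL libraries of mES and mEF cells were analysed from 2 aggregates. The authors aligned the reads with TopHat to mm9, both as given in the submitters' processing notes (version not given in the sources used here), assigned barcodes to cell types and pooled all libraries. The deposited records hold position, strand, read name and a mapping score with 4 values, set by the aligner and taken as a score only. Whether barcodes were assigned by nominal type or by cluster is not given in the sources used here.

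The 5′ end was the start of a plus-strand record or the end of a minus-strand record, counted from 1. The members and lists were chosen with earlier results of these data known. The genes named are the 3 of the rule. Other imprinted genes and cell type markers listed beforehand were not analysed here, as no mm9 annotation was used, and GRCm38 annotation served only for transcripts and sequences. A locus joined 5′ ends at most 500 nt apart. Ratios used 3 counts in place of 0, with exact binomial intervals of the split of records. With 1 aggregate per cell type no test was made. The steps were checked on simulated counts drawn independently. That simulation held no copies made by PCR, so it does not show how the intervals or fold calls behave for copied records. Alternatives were distinct positions, mapping score, strand, padding, second copies, totals, scaling, pseudocounts, single runs and locus rules. Python 3.11.15, numpy 2.4.6, pandas 2.3.3, scipy 1.17.1 and matplotlib 3.10.9 were used.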

Additional observations from a re-analysis of the deposited data

Results flagged for a closer look

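In records, the H19 ratio of mEF to mES differed between the sequencing runs in direction. Its log2 value was -0.71 in run 3 (12 mES and 2 mEF records, each at 1 position) and 5.08 over runs 1 and 2 (12 mES records at 1 position and 272 mEF records at 13 positions). In distinct positions, 1 in each aggregate, the run 3 log2 ratio was 1.31, a value set by the position totals of that run, which gives no direction for H19. The interval of the run 3 ratio in records, 0.0664 to 2.74, includes 1, and the difference between the runs was not tested. None of the run 3 positions of H19 was used in the other runs.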

How the results depend on the processing

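mEF exceeded mES for Igf2 and Meg3 under all alternatives that gave a value, and for H19 under all but one. The log2 ratio of H19, 4.22 as reported, was -0.71 with run 3 only, 6.01 with run 2 only, 5.08 without run 3 and 3.57 without run 1. That of Igf2, 4.27, was 2.10 in distinct positions and 2.81 with run 2 only, and that of Meg3, 1.51, was 2.04 in distinct positions, 2.66 with run 3 only, 1.70 without run 1 and 1.06 with median-of-ratios scaling. Counted as distinct positions per 1000000 positions, Igf2 was at 18.5 in mES and 79.2 in mEF, and Meg3 at 779 and 3208. With the highest mapping score only, H19 in mEF was at 767 CPM and Meg3 at 1122 CPM in mES and 3193 CPM in mEF, because all member records have that score while the totals shrink. Loci over 4-fold higher in mEF, 1061 of 4321 as reported (24.6%), numbered 3598 of 15083 with a minimum of 10 records (23.9%), 111 of 750 with a minimum of 200 (14.8%), 13 of 132 in distinct positions (9.85%) and 120 of 1043 with 10 or more positions (11.5%), the last chosen after seeing the data. The ratios of the Meg3 loci and of its downstream flank without run 3 were also added after seeing the data, and each stayed within the interval of the value reported. Except for the mapping score, the causes were not tested. Igf2 had no ratio in run 3. No paired analysis was possible because each cell type is 1 pool and the records carry no replicate number. Depth limits Igf2 in mES, with 5 records, and single positions.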
